A study of Mus musculus with 8 samples.

Results

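The 10 genes described here encode the enzymes that make serine and that pass its carbon through folate, and they were taken by symbol from a deposited table of 39179 mouse genes. All 10 symbols occurred once in that table, and all 10 passed the filter on low counts that left 13626 genes for testing. Phgdh, Psat1 and Psph form the serine synthesis group, Shmt2, Mthfd2, Mthfd1l and Aldh1l2 the mitochondrial folate group, and Shmt1, Mthfd1 and Aldh1l1 the cytosolic folate group. The list was chosen by enzyme function and with the measured difference of these counts, antibody over no antibody, already known. The fold changes and calls of the members are therefore given as a description, with no p-value for any of the 10.

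The RNA came from mouse pancreatic epithelial cancer cells with a green fluorescent label, of strain FVB/B6 mix. All 8 libraries share a genotype that includes p48Cre, ROSA_rtTAL+ and p53L+. Cre from the p48 (Ptf1a) locus acts in the pancreas, and rtTA drives an inducible transgene. Cells were grown for 72 h with red-labelled pancreatic stellate cells in 0.5% dialyzed serum, either with an antibody that blocks sonic hedgehog, at 20 µg/mL (4 libraries), or with none (4 libraries), and the green cells were then sorted and lysed. The labels call the 4 samples of an arm biological replicates, name no control antibody for the other arm and do not say how many cell lines were used. They do not say whether the samples were separate cultures, so errors and p-values measure the spread between these libraries, which may be technical.

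Cells make serine from a glycolytic intermediate in 3 steps. SHMT enzymes then split serine into glycine and a carbon unit that is carried by tetrahydrofolate, in the mitochondrion (SHMT2) or in the cytosol (SHMT1). Mitochondrial enzymes oxidize that unit and release it as formate, and cytosolic MTHFD1 takes formate up again for purines, thymidylate and methionine. ATF4, the transcription factor of the amino acid response, and MYC are known activators of serine synthesis and mitochondrial folate genes in mammalian cells.

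With the antibody, all 3 serine synthesis transcripts and all 4 mitochondrial folate transcripts fell, and the cytosolic folate transcripts did not. Aldh1l2 fell the most, by 53.2% of its level without antibody, and Psph fell by 36.5%. Phgdh, Psat1, Shmt2, Mthfd2 and Mthfd1l fell by 18.6% to 26.7%. Of the cytosolic enzymes Aldh1l1 rose by 23.9%, while Shmt1 and Mthfd1 did not pass the test. In all, 7 of the 10 were called as lower, where 3.87% of all tested genes were, and 1 was called as higher, where 4.53% were (edgeR, adjusted p under 0.05 over all tested genes). In the same 7 genes every antibody library lay below every other library, which held for 6.56% of tested genes. The percentages are the background only, since the members were chosen with this contrast in view. The median log2 fold change was -0.39 over the 10 genes and 0.00 over all 13626. In sorted bulk RNA, fewer cells with a transcript and less of it per cell cannot be told apart.

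**Figure D1:**
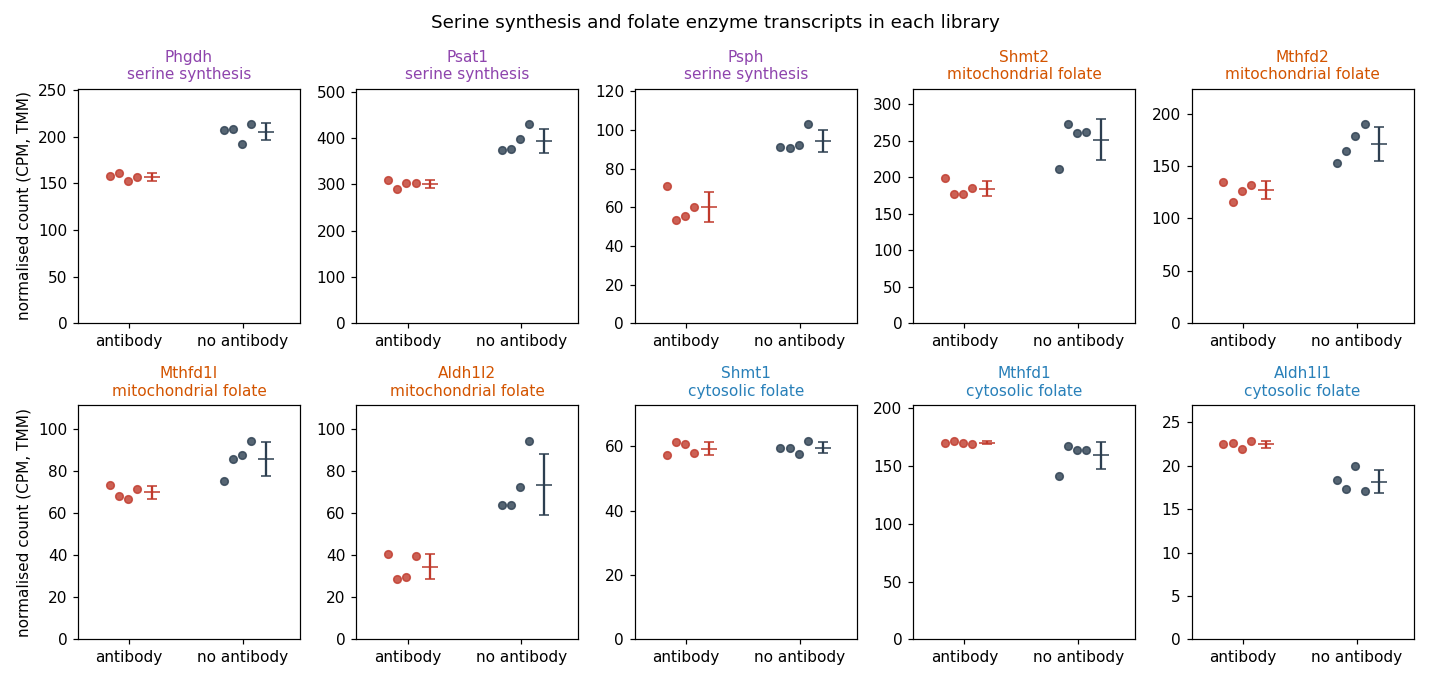
Normalised counts (CPM with TMM scaling, vertical axes from 0) of the 10 genes in each library, with antibody on the left and without on the right. Points are libraries in the order of their replicate number, and the bar beside them is mean ± SD (n = 4). The serine synthesis and mitochondrial genes lie lower in every antibody library than in any other library, Shmt1 overlaps between the arms, and Aldh1l1 lies higher with antibody.

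The libraries held between 10009711 and 15733280 counts assigned to genes, and depth differed with the arm: every antibody library (at least 14953255) was deeper than every library without antibody (at most 14602784). Each of the 10 genes had between 173 and 6279 counts in a library. Without antibody, replicate 1 stood apart from the other 3, with 6.21% of its counts in mitochondrially encoded mRNA against 4.10% to 4.55%, and replicate 4 stood apart less. The 8 epithelial markers took 0.729% to 0.780% of counts with antibody and 0.668% to 0.777% without, led by Krt18, Krt7, Krt8 and Krt19 (Cldn7 was near 0), and 1 was called, Epcam, as higher. The 14 stellate and fibroblast markers took 0.0139% to 0.0166% of counts with antibody and 0.0132% to 0.0166% without. Most of these came from Col5a1, Dcn and Lum had no count in any library, and 1 of the 14 was called, Pdgfra, as lower. Of the 6 that were tested, Pdgfra alone had a lower mean with antibody (2.78 CPM against 4.97 CPM without). The others had higher means with antibody, not called, among them Col1a1 (15.1 against 11.7 CPM), Col1a2 (15.1 against 10.7 CPM) and Col3a1 (4.27 against 2.61 CPM). Of the 6 leukocyte, 5 endothelial and 7 acinar markers none was called, and 8 of these 18, all leukocyte or acinar, had no count in any library. Those with the most counts were endothelial Cdh5 (mean 12.6 CPM with antibody and 11.5 CPM without), leukocyte Cd68 (5.05 and 4.60 CPM) and acinar Cela1 (2.99 and 3.88 CPM). The part of other cells in the differences below was not tested.

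Promoter windows of some of the genes that fell and of some cytosolic genes are shown for comparison. RefSeq windows on GRCm38.p6, from 250 bases before to 50 bases after the start, were found for 9 of the 10 genes, with 2 windows for Psat1, but not for Aldh1l2. Those of Psat1 (first window), Mthfd2, Shmt2 and Mthfd1l are printed before those of Shmt1 and Mthfd1. Letters run 5′ to 3′ along the strand of the gene, and capitals mark each CCAAT box, as CCAAT or, on the other strand, ATTGG.
Psat1, chr19:15925010-15925309, minus strand: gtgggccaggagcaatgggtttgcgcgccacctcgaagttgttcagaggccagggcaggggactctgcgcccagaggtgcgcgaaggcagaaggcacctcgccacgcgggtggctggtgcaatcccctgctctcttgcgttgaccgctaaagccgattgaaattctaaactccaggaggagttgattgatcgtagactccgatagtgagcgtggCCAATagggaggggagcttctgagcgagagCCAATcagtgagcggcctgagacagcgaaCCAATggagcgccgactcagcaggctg
Mthfd2, chr6:83317555-83317854, minus strand: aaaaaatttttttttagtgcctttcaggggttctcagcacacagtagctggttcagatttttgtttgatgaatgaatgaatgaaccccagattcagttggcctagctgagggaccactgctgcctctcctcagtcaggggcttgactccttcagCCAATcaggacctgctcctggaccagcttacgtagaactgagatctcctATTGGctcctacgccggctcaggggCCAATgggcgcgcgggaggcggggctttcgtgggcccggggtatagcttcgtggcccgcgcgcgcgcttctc
Shmt2, chr10:127522395-127522694, minus strand: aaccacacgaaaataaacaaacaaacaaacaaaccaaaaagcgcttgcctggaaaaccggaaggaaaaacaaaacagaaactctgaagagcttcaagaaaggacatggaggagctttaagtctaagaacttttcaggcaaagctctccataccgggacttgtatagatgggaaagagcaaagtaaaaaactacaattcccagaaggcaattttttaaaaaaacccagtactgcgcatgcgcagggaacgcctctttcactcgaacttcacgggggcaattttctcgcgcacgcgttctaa
Mthfd1l, chr10:3972825-3973124, plus strand: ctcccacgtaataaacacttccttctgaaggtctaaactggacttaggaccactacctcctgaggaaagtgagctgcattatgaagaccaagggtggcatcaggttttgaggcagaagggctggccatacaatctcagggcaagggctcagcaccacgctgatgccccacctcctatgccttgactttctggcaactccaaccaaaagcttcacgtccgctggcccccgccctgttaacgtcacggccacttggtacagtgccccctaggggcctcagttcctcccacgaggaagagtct
Shmt1, chr11:60811216-60811515, minus strand: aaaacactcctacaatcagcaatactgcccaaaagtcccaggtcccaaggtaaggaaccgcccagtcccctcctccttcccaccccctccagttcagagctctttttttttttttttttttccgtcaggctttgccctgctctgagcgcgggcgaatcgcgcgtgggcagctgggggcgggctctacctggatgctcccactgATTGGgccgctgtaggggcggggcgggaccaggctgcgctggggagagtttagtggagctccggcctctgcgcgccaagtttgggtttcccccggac
Mthfd1, chr12:76254982-76255281, plus strand: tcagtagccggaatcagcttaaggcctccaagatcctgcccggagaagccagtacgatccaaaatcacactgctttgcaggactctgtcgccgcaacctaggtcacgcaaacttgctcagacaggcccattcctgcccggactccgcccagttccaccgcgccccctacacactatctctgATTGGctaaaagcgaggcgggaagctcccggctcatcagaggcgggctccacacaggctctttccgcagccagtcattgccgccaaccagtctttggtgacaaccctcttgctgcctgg
Counting both strands, a CCAAT box occurred in 7 of the 10 windows, among them those of Phgdh and Psph, and in 37.4% of 32851 mouse windows of the same length. The first Psat1 window and the Mthfd2 window held 3 each, within 100 bases of the start, and the Shmt2, Mthfd1l and second Psat1 windows held none. The windows of all 3 cytosolic genes held at least 1. The element TGATGNAA, read by ATF4 with C/EBP partners, occurred in 0 of the 10 windows and in 3.97% of all windows. The E box CACGTG, read by MYC, occurred in 0 of 10 and in 7.15%, and the ATF core TGACGTCA in 0 of 10 and in 1.79%. The searches say only which letters lie within these 300 bases. The RefSeq starts of Psat1, Aldh1l1 and Shmt1 lie inside the deposited genes, which reach further upstream, so their windows do not cover the deposited 5′ ends. For Aldh1l1 this distance is the longest of the 3.

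The serine pathway begins with Phgdh (chromosome 3, 98313170 to 98339990, GRCm38), whose product oxidizes the glycolytic intermediate phosphoglycerate. Phgdh had 158, 162, 152 and 157 CPM in the antibody libraries, against 207, 209, 192 and 213 CPM in the libraries without antibody. CPM are counts scaled to the library's total, with TMM factors. The arms lay well apart, and the log2 fold change was -0.39 ± 0.05 (SE; 95% interval -0.49 to -0.29). Its spread was small, 2.48% of the mean with antibody and 4.44% without, where counting alone gives 2.04% and 2.01%.

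Psat1 (chromosome 19, 15904678 to 15947337) encodes the aminotransferase of the second step and had the most counts of the 10. It stood at 309.7, 289, 303 and 302 CPM with antibody, against 374, 376, 397 and 429.9 CPM without. The log2 fold change was -0.39 ± 0.05, close to that of Phgdh, although the libraries without antibody were not ordered alike for the 2 genes. Psph (chromosome 5, 129765558 to 129787252) encodes the phosphatase of the last step. Psph had 70.9, 53.5, 55.3 and 60.3 CPM with antibody, against 91.4, 90.7, 92.2 and 103 CPM without. Antibody replicate 1 was the highest of its arm and still lay below all 4 libraries without antibody. The log2 fold change of Psph was -0.66 ± 0.07, the largest of the 3 serine synthesis genes.

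In the mitochondrion, Shmt2 (chromosome 10, 127517123 to 127522444) encodes the enzyme that takes the carbon unit from serine. Shmt2 had 199, 176, 177 and 184 CPM with antibody, against 211, 272, 260.3 and 262 CPM without. The lowest value without antibody was that of replicate 1, the library with the high mitochondrial mRNA share, and it lay nearer to the antibody arm than to its own. The log2 fold change was -0.45 ± 0.06 with all libraries and -0.53 without that replicate. Whether the make-up of that library bears on its Shmt2 value was not tested.

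Mthfd2 (chromosome 6, 83305691 to 83317606) encodes the mitochondrial dehydrogenase and cyclohydrolase that oxidizes the folate-bound carbon. It stood at 135, 116, 126 and 132 CPM with antibody, against 153, 164, 178 and 189.7 CPM without. Mthfd1l (chromosome 10, 3973118 to 4167081) encodes the mitochondrial synthetase that releases formate. It stood at 73.3, 68.2, 66.6 and 71.5 CPM with antibody, against 75.4, 85.6, 87.7 and 94.5 CPM without. Neither gene overlapped between the arms, but Mthfd1l in replicate 1 without antibody came close to the highest antibody library. Their log2 fold changes were -0.43 ± 0.06 and -0.30 ± 0.06, the second being the smallest fall among the 7 genes.

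Aldh1l2 (chromosome 10, 83487450 to 83534140) encodes the mitochondrial enzyme that oxidizes formyl-tetrahydrofolate to CO2 and makes NADPH. Aldh1l2 had 40.5, 28.9, 29.8 and 39.5 CPM in the antibody libraries, against 63.7, 63.9, 72.3 and 94.5 CPM in the libraries without antibody. The highest antibody library was still well below the lowest of the others. Its log2 fold change was -1.09 ± 0.11, and only 10 of the 13626 tested genes had a more negative one. Aldh1l2 was also the most variable of the 10, with a spread of 17.8% of the mean with antibody and 19.7% without, while counting alone gives 4.34% and 3.33%.

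The cytosolic enzymes behaved otherwise. Shmt1 (chromosome 11, 60788104 to 60811718), the cytosolic counterpart of Shmt2, had 57.3, 61.3, 60.6 and 57.9 CPM with antibody, against 59.4, 59.6, 57.5 and 61.8 CPM without. The arms overlapped. The log2 fold change was -0.01 ± 0.05, and its 95% interval reached from -0.12 to 0.10, or from 0.923-fold to 1.07-fold. The spread of Shmt1 was 3.33% of the mean with antibody and 2.91% without, where counting alone gives 3.32% and 3.73%. Shmt1 overlaps Smcr8 on the other strand over 184 bases of their gene spans, and the strand setting of the counting is not given, so a part of its reads is uncertain.

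Mthfd1 (chromosome 12, 76255232 to 76319820) encodes the cytosolic enzyme with 3 activities that interconverts formate and the other carbon units on folate. Mthfd1 had 169.6, 172, 169.8 and 169 CPM with antibody, against 141, 167, 164 and 164 CPM without. The arms did not overlap, as in 9 of the 10 genes and in 14.3% of all tested genes, but the gene was not called (log2 fold change 0.10 ± 0.05, 95% interval -0.01 to 0.20). Replicate 1 without antibody lay far below its arm here as it did for Shmt2, and without it the log2 fold change was 0.04. Aldh1l1 (chromosome 6, 90486427 to 90600203), the cytosolic counterpart of Aldh1l2, had the fewest counts of the 10. Aldh1l1 stood at 22.5, 22.6, 21.9 and 22.9 CPM with antibody, against 18.3, 17.3, 20.0 and 17.1 CPM without. All antibody libraries were higher, and the log2 fold change was 0.31 ± 0.07, opposite in direction to Aldh1l2.

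Set pair by pair, each mitochondrial transcript was lower relative to its cytosolic counterpart with the antibody. RPKM are the authors' counts per kilobase of a length set for each gene and per library total. That length is shorter than the gene span (2486 bases for Phgdh). Ratios of RPKM compare levels of different genes only as far as that length holds for the transcripts in these cells, which was not tested. For a pair of genes, the fold change of the ratio between the arms does not depend on the length. Shmt2 was 5.84, 4.85, 4.91 and 5.37 times Shmt1 in the antibody libraries, against 5.98, 7.69, 7.62 and 7.15 times in the libraries without antibody. The arms were separate, but only just for replicate 1 without antibody, which lay close to the highest antibody library. Mthfd2 was 0.971, 0.822, 0.907 and 0.956 times Mthfd1 with antibody, against 1.32, 1.20, 1.33 and 1.41 times without. On the authors' lengths Mthfd2 thus lay below Mthfd1 in all 4 antibody libraries and above it in all 4 others. Mthfd1l averaged 0.308 ± 0.015 times Mthfd1 with antibody and 0.404 ± 0.020 times without (SD, n = 4 each).

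For the oxidizing pair the difference was wider. Aldh1l2 was 1.08, 0.769, 0.818 and 1.04 times Aldh1l1 with antibody, against 2.09, 2.22, 2.18 and 3.32 times without. On the authors' lengths the 2 genes were about level with antibody, and Aldh1l2 led in every library without it. On the log2 scale the fold changes of the members of a pair differed by -0.44 for SHMT, -0.53 for Mthfd2 and Mthfd1, -0.39 for Mthfd1l and Mthfd1, and -1.40 for the ALDH1L pair. The median of the 4 mitochondrial genes minus that of the 3 cytosolic ones was -0.54, and between -0.57 and -0.48 under every alternative tried.

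**Figure D2:**
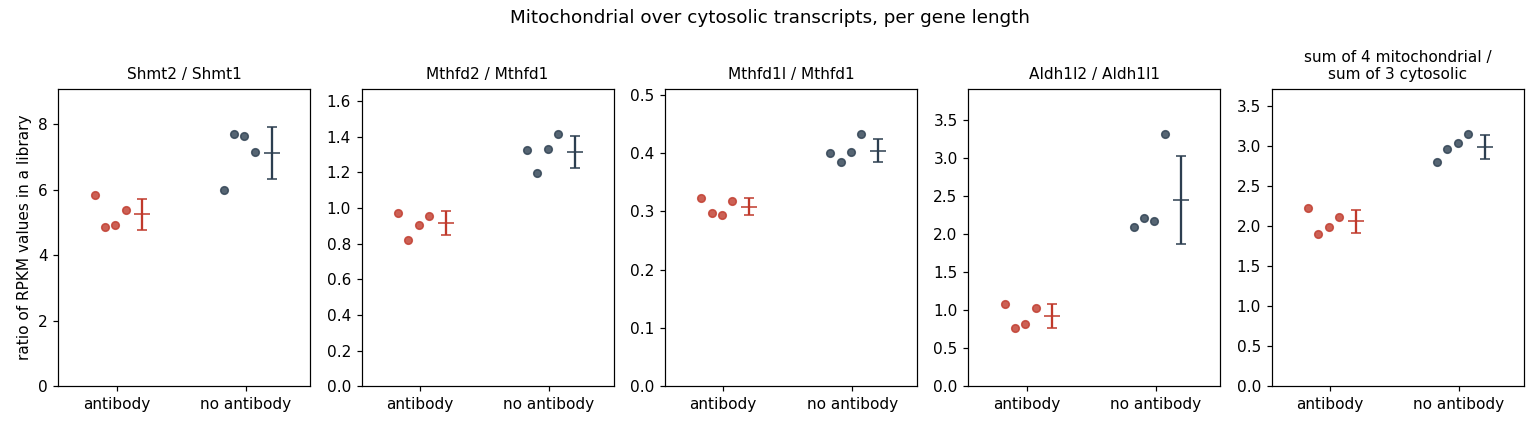
Ratio of mitochondrial to cytosolic transcripts in each library, from RPKM, with antibody on the left and without on the right (vertical axes from 0). Points are libraries and bars are mean ± SD (n = 4). The arms do not overlap for any of the 4 pairs, nor for the summed RPKM, where the ratio is 2.06 ± 0.14 with antibody and 2.99 ± 0.15 without.

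Summed by group, the serine synthesis transcripts reached 155, 146, 147 and 149 RPKM with antibody, against 191, 194, 194 and 213 RPKM without. The 4 mitochondrial transcripts reached 159, 138, 142 and 149 RPKM with antibody, against 171, 206, 208 and 217 RPKM without. The 3 cytosolic transcripts reached 71.4, 72.6, 71.7 and 70.5 RPKM with antibody, against 61.0, 69.3, 68.6 and 69.0 RPKM without. The serine and mitochondrial sums thus lay lower with the antibody and the cytosolic sum slightly higher, with replicate 1 again the lowest library without antibody in all 3 groups. Together the 10 genes took 0.119% ± 0.004 of a library's counts with antibody and 0.151% ± 0.010 without (n = 4 libraries an arm, ± SD).

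Levels per gene length set the 10 transcripts in a wide order. With antibody, Shmt2 led at 80.1 ± 4.84 RPKM, followed by Psat1 (70.9 ± 2.23 RPKM), Phgdh (63.3 ± 1.59 RPKM), Mthfd1 (51.3 ± 0.487 RPKM) and Mthfd2 (46.8 ± 3.19 RPKM), with no overlap between neighbours. Mthfd1l (15.8 ± 0.715 RPKM), Shmt1 (15.3 ± 0.498 RPKM) and Psph (15.0 ± 2.01 RPKM) came next and overlapped, and so did Aldh1l1 (4.99 ± 0.084 RPKM) and Aldh1l2 (4.63 ± 0.829 RPKM) at the low end. Without antibody the order was Shmt2 (109 ± 12.5 RPKM), Psat1 (92.3 ± 6.51 RPKM), Phgdh (82.3 ± 3.59 RPKM), Mthfd2 (62.7 ± 6.24 RPKM) and Mthfd1 (47.7 ± 3.86 RPKM). Psph (23.4 ± 1.52 RPKM), Mthfd1l (19.3 ± 1.90 RPKM), Shmt1 (15.3 ± 0.465 RPKM), Aldh1l2 (9.78 ± 1.97 RPKM) and Aldh1l1 (4.01 ± 0.289 RPKM) followed. In that arm Shmt2 and Psat1 were the 1 pair of neighbours whose libraries overlapped. The places of Mthfd1 and Mthfd2, and of Aldh1l1 and Aldh1l2, are exchanged between the arms, and Psph was eighth with antibody and sixth without. This order rests on the authors' length for each gene, and close neighbours could change places with another length.

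Apart from the difference between the arms, several of the 7 genes that fell also varied together among libraries of the same arm. For each gene the mean log2 CPM of its arm was taken away, and Pearson's r of what remained was computed over the 8 libraries, as a description. These points share sequencing depth and library composition, and replicates 1 and 4 without antibody weigh heavily. Antibody libraries do so too for some genes, as for Aldh1l2, with deviations of 0.241 in antibody replicate 1 and -0.245 in antibody replicate 2. Among the 21 pairs of the 7 genes the median r was 0.66, and 13 pairs were above 0.5. How common such values are among pairs of other genes was not tested. Mthfd2 went closely with Psat1 (r = 0.92), Aldh1l2 (0.89) and Mthfd1l (0.88). Antibody replicate 1 and replicate 4 without antibody were the high libraries for Psph, Mthfd2 and Aldh1l2 within their arms.

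Phgdh stood outside that pattern, although it fell as much as Psat1. Its r with the other 6 genes that fell lay between -0.16 and 0.18, and with Psat1 it was 0.02. The spread of Phgdh with antibody, 2.48% of the mean, was close to the 2.04% that counting alone gives. Without antibody it was 4.44% against 2.01%. How far counting noise bears on the r of Phgdh was not tested. Between the 7 genes and the 3 cytosolic ones the median r was -0.07 over 21 pairs. Mthfd1 lay far above that median, with an r of 0.87 with Shmt2 and 0.75 with Mthfd1l, all 3 being low in replicate 1 without antibody. Over all 45 pairs the median r was 0.18.

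**Figure D3:**
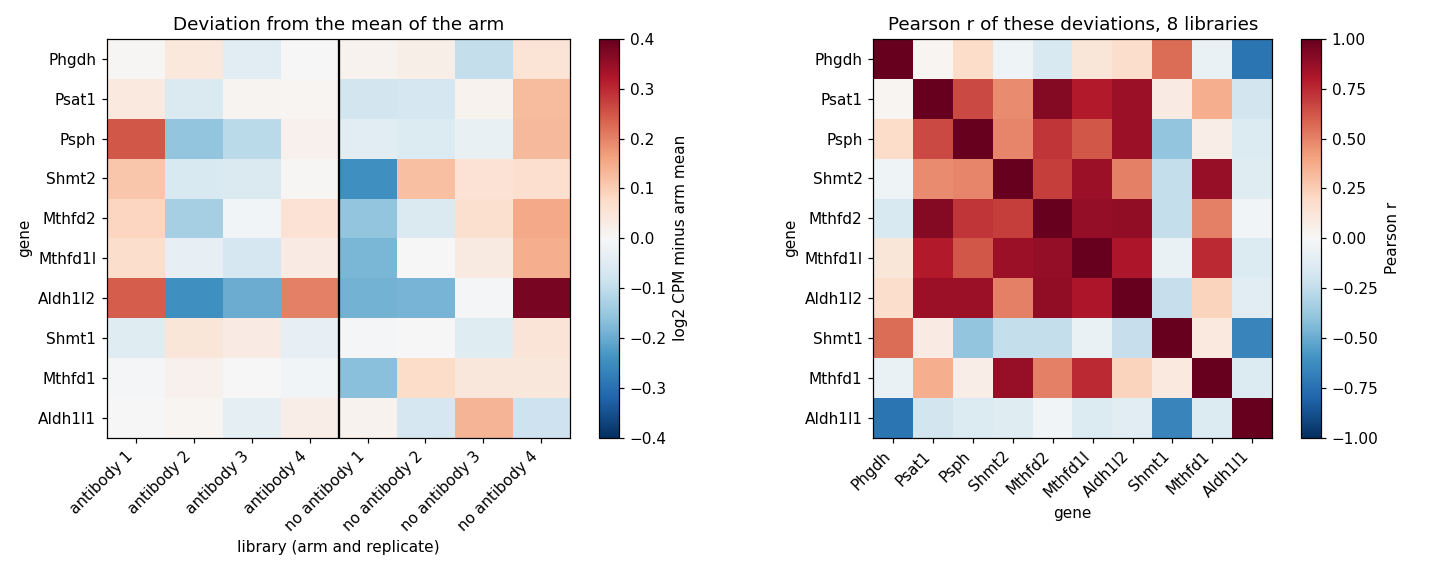
Left, deviation of log2 CPM from the mean of the arm, for each of the 10 genes (rows) in each library (columns, the 4 antibody libraries first). Right, Pearson's r of these deviations between genes over 8 libraries. Psat1, Psph, Mthfd2, Mthfd1l and Aldh1l2 share high values in antibody replicate 1 and in replicate 4 without antibody, while Phgdh and the cytosolic genes are not high in both.

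Across all 8 libraries, the 9183 genes that averaged 10 CPM or more were ranked by their likeness to Aldh1l2, with Pearson's r of log2 CPM. The 3 nearest were Pck2, the mitochondrial phosphoenolpyruvate carboxykinase (r = 0.996), Slc7a1, a carrier of cationic amino acids (r = 0.991), and Asns, asparagine synthetase (r = 0.99), and within the arms their r with Aldh1l2 was 0.97, 0.94 and 0.94. Their log2 fold changes were smaller than that of Aldh1l2, at -0.59, -0.27 and -0.51. These 3 genes were picked over the same 8 libraries, so their high r within the arms follows in part from the choice. For Shmt1 the 3 nearest genes were Aven (r = 0.95), Sdccag8 (0.91) and Apool (0.90), and the spread of Shmt1 itself was close to that of counting with antibody and below it without.

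Beyond the 10 enzymes, 6 lists of other pathway genes held 73 genes, of which 62 were tested. With the antibody 5 of the 62 were lower and 5 were higher, or 16.1%, where 8.4% of all tested genes differed. The median log2 fold change of the 62 was 0.00. Of the 11 genes not tested, each had at most 3 counts in any library, among them Ftcd and the folate receptor genes Folr1 and Folr2.

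Transporters made up most of the falls, with 3 of 9 tested. Slc6a9, a glycine transporter, had 87.5, 73.6, 79.1 and 80.1 CPM with antibody, against 109.8, 106, 110.2 and 119 CPM without (log2 fold change -0.47 ± 0.06 SE, adjusted p = 6.84e-06 by edgeR). Slc1a4, which carries serine and alanine, had a log2 fold change of -0.33 ± 0.06 (edgeR adjusted p = 0.00045). That of Slc1a5, which carries glutamine and other neutral amino acids, was -0.31 ± 0.05 (edgeR adjusted p = 0.000278). All 4 antibody libraries were below all others for each of the 3. Slc6a9 overlaps B4galt2 on the other strand, so a part of its reads is uncertain. Slc19a1, the reduced folate carrier (-0.13 ± 0.06), Slc25a32, the mitochondrial folate carrier (0.13 ± 0.08), and Sfxn1, a mitochondrial serine transporter (0.03 ± 0.05), did not pass the test.

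In the rest of the folate cycle 2 of 17 tested genes rose, 1 mitochondrial and 1 cytosolic. Among the cytosolic ones 1 more, not reported here by name, fell. Gldc, the decarboxylase of mitochondrial glycine cleavage, averaged 67.1 ± 3.19 CPM with antibody and 57.9 ± 3.00 CPM without (SD, n = 4 each; 0.21 ± 0.06 SE, edgeR adjusted p = 0.0163). Tyms, thymidylate synthase, averaged 60.0 ± 2.34 CPM with antibody and 52.8 ± 3.91 CPM without (0.19 ± 0.06, edgeR adjusted p = 0.0471). The call of Gldc was lost in 5 of 17 alternatives, 3 of which left out antibody replicate 1, 2 or 3. That of Tyms was lost in 12, among them leaving out any antibody library or replicate 3 or 4 without antibody. Mthfd2l, a relative of Mthfd2, stood at -0.08 ± 0.09 and did not pass the test.

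Among the users of serine and of folate carbon few genes passed. Sars, the cytosolic seryl-tRNA synthetase, had 436, 395, 390.0 and 403 CPM with antibody, against 464, 506, 506 and 533 CPM without (-0.31 ± 0.05, edgeR adjusted p = 0.000442). It was the 1 called gene of 12 tested in its list, and its mitochondrial counterpart Sars2 stood at -0.18 ± 0.09. Of 14 purine and thymidylate genes Prps2, which makes the ribose precursor (0.20 ± 0.05, edgeR adjusted p = 0.0248), and Dut, which removes dUTP (0.18 ± 0.05, edgeR adjusted p = 0.0371), rose and none fell. The Prps2 call was lost in 6 of 17 alternatives, among them leaving out antibody replicate 2, 3 or 4 or replicate 3 without antibody. The Dut call was lost in 9, among them leaving out antibody replicate 1, 2 or 3 or replicate 3 or 4 without antibody. Of 10 methionine cycle genes Ahcyl2, a relative of adenosylhomocysteinase, rose (155 ± 6.42 CPM with antibody and 129 ± 8.18 CPM without, n = 4 each; 0.27 ± 0.05 SE, edgeR adjusted p = 0.00168), and none fell.

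Of the 3 transcription factors known to act on these genes 2 fell. Atf4 mRNA had 390.3, 357, 367 and 390.3 CPM with antibody, against 431, 467, 455 and 507 CPM without (-0.31 ± 0.05, edgeR adjusted p = 0.0005). Myc had 343, 341, 326 and 353 CPM with antibody, against 456, 509, 518 and 453 CPM without (-0.51 ± 0.05, edgeR adjusted p = 1.48e-06). Both genes were lower in all 4 antibody libraries. Nfe2l2, which encodes NRF2, stood at 0.13 ± 0.05 and did not pass the test (edgeR adjusted p = 0.11), although its arms did not overlap.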

How the data were processed

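The authors deposited raw counts per Ensembl gene and RPKM values for the same 8 libraries, 1 column each. Per the submitters' processing notes, CASAVA 1.8.2 and TopHat2 2.0.9 were used with GRCm38, and per the labels' protocols the libraries were polyA and strand-specific. No source used here gives the counting tool, the annotation release or the strand setting. In 15265 genes with counts in all libraries, the deposited RPKM equalled count over 1 length and the column total, with lengths the same within 1 base.

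The deposited counts went into edgeR 4.0.16 under R 4.3.3. The model had the arm as its only term, genes passed filterByExpr, scaling was TMM, and the quasi-likelihood p was adjusted by Benjamini-Hochberg over 13626 genes with 0.05 as the threshold. Log2 fold changes are antibody over no antibody, and their errors and 95% intervals come from the test statistic. A count of 3 equals 0.191 to 0.30 CPM. The procedure was tested on simulated data. Within the arms every pair of libraries differed by more than sampling noise, with a chi-square per degree of freedom of 1.72 to 11.2.

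The 10 genes, the other pathway lists and the markers were chosen by known function, with earlier results of these data known. The text names the 10 genes, the 3 transcription factors, up to 4 called genes of each pathway list by smallest p, and the 3 genes nearest to Aldh1l2 and to Shmt1. Slc19a1, Slc25a32, Sfxn1, Mthfd2l and Sars2 were added after their values were seen, and Ftcd, Folr1 and Folr2 are named as examples of genes not tested. An allele that all samples share, and single genes of the pathway lists, are not reported here by name. Alternatives were RLE scaling, other filters on low counts (none, or 1 CPM in 4 libraries), a replicate block, DESeq2 1.42.0, limma 3.58.1 (voom with sample weights, and log2(RPKM + 1) or log2(RPKM + 0.1)), and leaving out each library. Chosen after the data had been seen was leaving out replicates 1 and 4 without antibody together, and leaving out Aldh1l1 or Aldh1l2 from the mitochondrial and cytosolic medians.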

Additional observations from a re-analysis of the deposited data

Results flagged for a closer look

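In 46 sets of 4 libraries, for 23 genes in either arm, 3 libraries lay farther from the rest of their arm than Dixon's 95% critical value of 0.829 allows. Chance alone gives about 1 in 20 such sets. Without antibody, replicate 1 had 141 CPM of Mthfd1 (141.363 before rounding), against 164 to 167 CPM in the other 3 libraries of that arm. Replicate 4 without antibody had 103 CPM of Psph, against 90.7 to 92.2 CPM in its arm. Replicate 1 with antibody had 88.3 CPM of Slc1a5, against 79.7 to 80.4 CPM in its arm.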

How the results depend on the processing

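All 7 genes called as lower and the 1 called as higher among the 10 enzymes kept their call and direction in all 17 alternatives, and Shmt1 and Mthfd1 passed in none. The median of the mitochondrial minus that of the cytosolic genes ranged from -0.57 to -0.48. Over all genes 1144 were called. There were 675 on log2(RPKM + 1), 670 on log2(RPKM + 0.1), 679 to 1485 without single libraries and 2263 without replicates 1 and 4 of the arm without antibody. The low counts came without antibody replicate 2 (679) and without antibody replicate 3 (695). Of the other pathway genes 10 were called, or 6 on log2(RPKM + 1), 6 on log2(RPKM + 0.1) and 6 to 11 without single libraries. The 5 that fell were called throughout. The 5 that rose came down to 1 on log2(RPKM + 1), 1 on log2(RPKM + 0.1) and 1 to 5 without single libraries, with 2, 1, 1 and 3 left when antibody replicate 1, 2, 3 or 4 was left out and 2 when replicate 3 of the other arm was, and the cause was not tested. Gldc lost its call without antibody replicate 1, 2 or 3, Prps2 without antibody replicate 2, 3 or 4 and without replicate 3 of the other arm, and Dut without antibody replicate 1, 2 or 3 and without replicate 3 or 4 of the other arm. Tyms kept its call without replicate 1 or without replicate 2 of the arm without antibody, and lost it without any other single library. The median within-arm r of the 45 pairs, 0.18, ranged from 0.06 to 0.34. Libraries with the same replicate number did not deviate together (r from -0.029 to 0.0066 over 13626 genes), and 0 of 8 were closest to their own number. With the replicate block 1005 genes were called, and 3 of the other pathway genes as higher. Aldh1l1, with 173 to 356 counts a library, was the least deeply counted of the 10.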
